A study of Mus musculus with 36 samples.

Results

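The 39 mouse genes described here encode the chaperones and folding enzymes of the endoplasmic reticulum (ER), the sensors of the unfolded protein response and the ER-associated degradation machinery. They were chosen by symbol, with Cdnf as the starting point, to ask whether the large response of Cdnf in this heart model was shared by other ER chaperones. All 39 symbols matched a row among the 55291 genes of the deposited tables, and all 39 were among the 19231 genes that passed the filter on low counts.

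RNA-Seq was performed on left ventricles and atria of CUG960 mice, a model of the heart in myotonic dystrophy type 1, at 21 weeks of age. All animals, controls included, were homozygous for TREDT960I, the transgene for RNA with expanded CUG repeats (CUGexp RNA), and hemizygous for MHC-rtTA, which places the doxycycline-dependent activator under the α-myosin heavy chain promoter of cardiomyocytes. The CUG960 +dox cohort received doxycycline from P1 and expressed the repeat RNA throughout, the –dox cohort never received it, and the +/–dox cohort was taken off it at 9 weeks. The cohorts named MBNL1, MBNL2 or MBNL1+MBNL2 were kept on doxycycline and given AAV9 vectors at 9 weeks that drive tagged human MBNL proteins from the TNNT2 promoter in cardiomyocytes. No cohort with a control vector is among the RNA-Seq libraries, so the vector and the MBNL protein cannot be told apart. Nor did any library come from mice given doxycycline without the repeat transgene. In comparisons of +dox with –dox or +/–dox, doxycycline and the repeat RNA therefore cannot be told apart. Each of the 12 combinations of tissue and cohort held 3 libraries, and the atria and ventricles of a cohort came from the same animals.

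CDNF and MANF form a small family of ER-resident proteins, first described as neurotrophic factors. Among the better known chaperones, Hspa5 encodes BiP, the Hsp70 of the ER lumen, Hsp90b1 encodes GRP94, and Calr and Canx encode the lectin chaperones calreticulin and calnexin. When unfolded proteins accumulate, BiP is released from the sensors IRE1 (Ern1), ATF6 (Atf6) and PERK (Eif2ak3). IRE1 then splices the mRNA of the transcription factor XBP1, ATF6 is cut by the proteases encoded by Mbtps1 and Mbtps2, and PERK slows translation. XBP1 and ATF6 raise the transcription of chaperones and of degradation genes such as Herpud1 and Syvn1.

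Promoter windows, 250 bases before to 50 bases after the start of each gene, are shown for Cdnf, for the other genes whose response stood out (Herpud1 higher, Sdf2l1 lower) and for Hspa5, the standard target of the response. Windows from RefSeq (GRCm38.p6) were found for 33 of the 39 genes. The ER stress response element (ERSE) was searched as CCAAT, any 9 bases, then CCACG. ERSE-II was searched as ATTGG, any base, then CCACG, and the XBP1 element (UPRE) as TGACGTGG. All were searched on both strands, and every ERSE also counts as a match of CCAAT and of CCACG. Capitals mark each CCAAT or CCACG, or its reverse complement, including those inside an ERSE or ERSE-II. The Cdnf window lies at chr2:3512815-3513114 (plus strand), the Herpud1 window at chr8:94386179-94386478 (plus strand), the Hspa5 window at chr2:34771840-34772139 (plus strand) and the Sdf2l1 window at chr16:17132334-17132633 (minus strand).
Cdnf: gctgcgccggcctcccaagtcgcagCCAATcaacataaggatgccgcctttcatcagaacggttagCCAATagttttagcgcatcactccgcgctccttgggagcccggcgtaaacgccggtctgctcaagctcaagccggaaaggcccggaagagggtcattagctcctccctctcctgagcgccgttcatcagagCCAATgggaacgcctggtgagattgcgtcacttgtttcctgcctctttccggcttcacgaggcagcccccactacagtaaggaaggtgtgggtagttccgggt
Herpud1: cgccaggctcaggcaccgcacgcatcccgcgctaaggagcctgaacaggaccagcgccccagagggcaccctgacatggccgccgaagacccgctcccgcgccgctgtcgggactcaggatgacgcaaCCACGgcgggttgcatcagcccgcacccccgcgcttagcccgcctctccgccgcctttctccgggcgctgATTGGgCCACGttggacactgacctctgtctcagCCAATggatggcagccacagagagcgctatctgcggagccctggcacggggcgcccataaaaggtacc
Hspa5: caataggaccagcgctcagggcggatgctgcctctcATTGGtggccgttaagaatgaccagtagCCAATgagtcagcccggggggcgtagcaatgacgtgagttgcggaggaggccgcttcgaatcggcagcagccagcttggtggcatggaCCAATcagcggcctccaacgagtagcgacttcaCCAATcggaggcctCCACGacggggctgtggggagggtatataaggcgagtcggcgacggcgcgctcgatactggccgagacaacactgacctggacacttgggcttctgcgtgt
Sdf2l1: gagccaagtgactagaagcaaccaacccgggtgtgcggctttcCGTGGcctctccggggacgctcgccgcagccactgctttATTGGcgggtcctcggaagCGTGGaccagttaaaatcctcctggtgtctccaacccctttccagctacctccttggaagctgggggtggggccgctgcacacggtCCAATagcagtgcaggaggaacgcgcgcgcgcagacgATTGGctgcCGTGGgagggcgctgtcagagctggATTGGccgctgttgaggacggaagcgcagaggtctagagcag

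An ERSE was present in 9 of the 33 genes (27.3%), namely Hspa5, Hsp90b1, Calr, Canx, Pdia6, Creld2, Dnajc3, Syvn1 and Derl3, compared with 0.137% of the 27025 genes with a window. ERSE-II was present in 2, Herpud1 and Dnajb11, compared with 0.044% of genes. No UPRE was present in the 33 genes, compared with 0.714% of all genes. The short letters CCACG occurred in 75.8% of the 33 genes and in 35.5% of all genes. The window of Cdnf held 3 copies of CCAAT and no CCACG, and so neither ERSE nor ERSE-II in this window. The genes were spread over 17 chromosomes.

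Library totals ranged from 55031987 to 97091184 expected counts. Markers of cardiomyocytes were high in all libraries, and ventricular and atrial markers matched the labelled tissue. Replicate 1 of the ventricle MBNL1 cohort stood apart, with 16885 genes above 0 compared with 20578 to 24041 in the other libraries, and with the lowest weight in a fit that weights libraries (0.115). The values of Cdnf, Manf and Herpud1 that rest on it are therefore given with and without it, as is the count of genes at adjusted p alone with MBNL1. The next lowest weight, 0.403, was that of ventricle +dox replicate 3, which enters every ventricle comparison with +dox. In bulk tissue, fewer cells of a type and less RNA per cell cannot be told apart.

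Comparison of the –dox cohort with +dox asked which of these genes differ in mice never given doxycycline, whose hearts never expressed CUGexp RNA. A gene was counted as changed past both thresholds when its adjusted p was below 0.05 and its change was at least 1.5-fold. In ventricles 4 of the 39 genes passed both, while 7.6% of all genes did. Cdnf and Herpud1 were higher in –dox, and Manf and Sdf2l1 were lower. In atria only Cdnf passed both, against 5.23% of all genes. Of 39 genes, 28 in ventricles and 32 in atria lay within 1.25-fold of +dox.

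**Figure D1:**
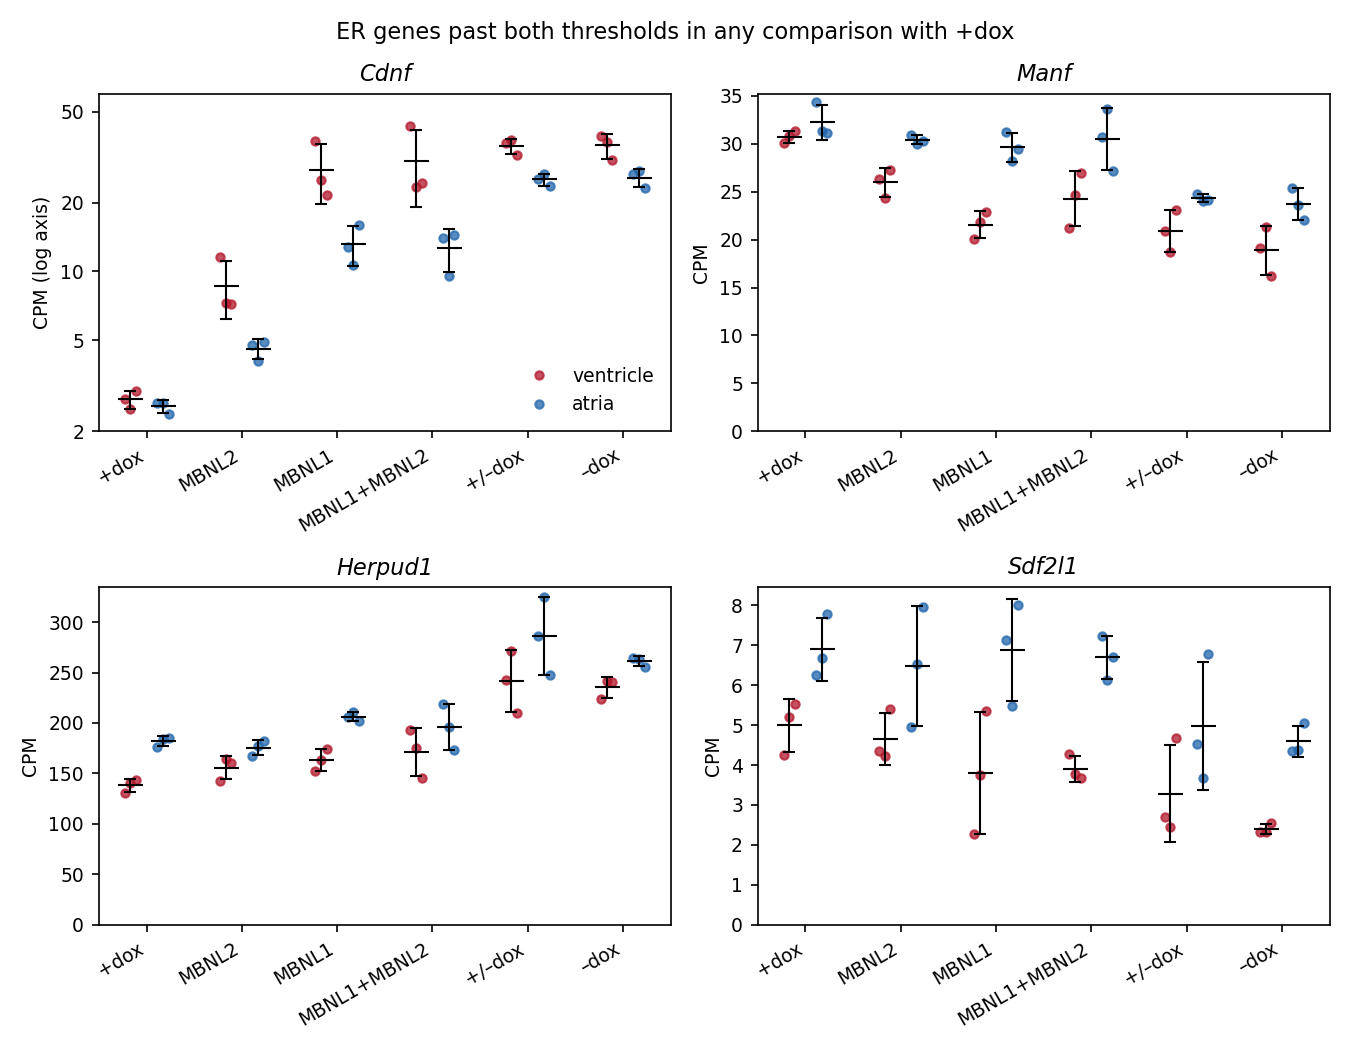
Normalised read count in CPM (vertical axis) of Cdnf, Herpud1, Manf and Sdf2l1 in each library of the 6 cohorts, in ventricles and atria. Points are libraries and bars give the mean ± SD (n = 3), with a log axis for Cdnf alone. The 6 +dox libraries of Cdnf lie between 2.38 and 2.99 CPM, below every library of the other cohorts.

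Cdnf changed most of the 39, but its response in these data was known and prompted their choice, so its lead is no test. The paper had already reported its change in ventricles. Levels are given as CPM, read counts scaled to a common library size. In ventricles it measured 2.76, 2.51 and 2.99 CPM in the 3 +dox libraries and 39.1, 37.0 and 30.6 CPM in the –dox libraries. In atria it measured 2.67, 2.65 and 2.38 CPM in +dox and 26.6, 27.4 and 23.1 CPM in –dox. The groups did not overlap in either tissue. The log2 fold change was 3.69 (SE 0.24, adjusted p = 1.86e-11) in ventricles and 3.32 (SE 0.24, adjusted p = 1.08e-10) in atria, or 12.9-fold and 9.98-fold. The change rested on 243, 222 and 195 expected counts in the ventricle +dox libraries and 2299, 2494 and 1617 in –dox. Among all genes higher in –dox past both thresholds, Cdnf ranked 16 of 667 in ventricles and 18 of 544 in atria by the size of the rise.

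On the per-length scale Cdnf was the second lowest of the 39 genes in +dox hearts and a middle-ranked or low one in –dox hearts. Its level was 1.11 ± 0.17 TPM (SD, n = 3) in ventricle +dox and 13.9 ± 1.03 TPM in ventricle –dox, where it ranked 24 of 39. In atria it was 1.50 ± 0.04 TPM in +dox and 14.6 ± 0.55 TPM in –dox, where it ranked 31. Hspa5 had the highest level of the 39 in these 4 groups, 250 ± 32.9 TPM in ventricle +dox and 212 ± 17.1 TPM in ventricle –dox. Derl3, a derlin of the degradation machinery, had the lowest level, 0.16 ± 0.10 TPM in ventricle +dox. The summed level of the 38 genes other than Cdnf was 1519 ± 123 TPM in ventricle +dox and 1362 ± 49.6 TPM in –dox, and 2394 ± 102 and 2210 ± 60.7 TPM in atria. The summed levels thus moved by a small part of their size on this scale, and in the opposite direction to Cdnf. In –dox the level of the median gene of the 39 had a log2 ratio to +dox of -0.07 in each tissue. On CPM it was -0.11 in ventricles and 0.04 in atria, so the direction in atria depended on the scale.

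Manf, the paralog of Cdnf, went the other way. It measured 30.1, 30.8 and 31.3 CPM in ventricle +dox and 19.2, 21.3 and 16.2 CPM in –dox, a log2 fold change of -0.70 (SE 0.09, adjusted p = 1.91e-06). In atria it measured 34.3, 31.3 and 31.1 CPM in +dox and 25.3, 23.7 and 22.0 CPM in –dox, a log2 fold change of -0.45 (SE 0.09, adjusted p = 8.91e-04) that was below 1.5-fold. All –dox libraries lay under all +dox libraries in both tissues. The annotated span of Manf on chromosome 9 overlaps other genes, Rbm15b on the same strand among them, so its counts may be shared in part.

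Of the 8 genes of the Hsp70 and Hsp90 system none was higher and 2 were lower in ventricle –dox at adjusted p below 0.05, namely Sdf2l1 and Dnajb11. Over all genes 9.64% were higher and 11.3% lower by that rule. The counts by role that follow use the same rule, and in atria the shares of all genes were 7.3% and 8.62%. Hspa5 measured 522, 547 and 590 CPM in ventricle +dox and 497, 535 and 409 CPM in –dox, so that the groups overlapped. In atria it measured 482, 456 and 425 CPM in +dox and 417, 418 and 330 CPM in –dox, without overlap. Its log2 fold change was -0.20 (SE 0.09, adjusted p = 0.104) in ventricles and -0.23 (SE 0.09, adjusted p = 0.0785) in atria. For Hsp90b1 the log2 fold change was -0.16 (SE 0.07, adjusted p = 0.117) in ventricles and 0.04 (SE 0.07, adjusted p = 0.736) in atria. The 95% intervals of these 4 differences lay between -0.41 and 0.19, far from the rise of Cdnf.

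Sdf2l1 encodes a partner of the ER J-domain proteins. It measured 4.25, 5.21 and 5.53 CPM in ventricle +dox and 2.33, 2.33 and 2.54 CPM in –dox, without overlap, a log2 fold change of -1.06 (SE 0.25, adjusted p = 0.00221). In atria it measured 6.25, 6.68 and 7.78 CPM in +dox and 4.36, 4.37 and 5.05 CPM in –dox, and the log2 fold change of -0.59 (SE 0.24, adjusted p = 0.0899) did not pass. Dnajb11, an ER Hsp40 chosen for mention after its values were seen, was lower in ventricles by a log2 fold change of -0.39 (adjusted p = 4.01e-05) and in atria by the same (-0.39, adjusted p = 5.57e-05).

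Calreticulin was lower in –dox and calnexin was not called. Calr measured 265, 260 and 293 CPM in ventricle +dox and 198, 217 and 193 CPM in –dox, a log2 fold change of -0.43 (SE 0.07, adjusted p = 6.55e-05). In atria it measured 304, 304 and 303 CPM in +dox and 246, 234 and 233 CPM in –dox (log2 fold change -0.35, SE 0.07, adjusted p = 8.91e-04). The –dox libraries lay below the +dox libraries in both tissues, and neither change reached 1.5-fold. Of the 6 disulfide isomerases and related proteins, 3 were lower at adjusted p below 0.05 in ventricles and 3 in atria, the same genes each time (Pdia4, Pdia6 and Creld2), and none was higher. Their log2 fold changes ranged from -0.49 (Pdia4) to 0.02 (Creld1) in ventricles.

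Among the sensors and their proteases, 2 of 7 were higher in ventricle –dox and none in atria, and none was lower. Ern1 measured 23.4, 24.9 and 25.1 CPM in ventricle +dox and 31.9, 31.3 and 28.0 CPM in –dox, without overlap (log2 fold change 0.31, SE 0.08, adjusted p = 0.0057), and by limma-trend on log2(TPM + 1) its adjusted p was 0.159. In atria the log2 fold change of Ern1 was 0.18 (SE 0.08, adjusted p = 0.137). Atf6 had a log2 fold change of 0.24 (SE 0.07, adjusted p = 0.0219) in ventricles and -0.06 (SE 0.07, adjusted p = 0.653) in atria. The ventricular call of Atf6 was lost without +dox replicate 3 (0.18, adjusted p = 0.126) or –dox replicate 2 (0.15, adjusted p = 0.183), in a fit of only the 6 libraries compared (adjusted p = 0.117) and with no filter on low counts (adjusted p = 0.0514). For Eif2ak3 the values were 0.05 (SE 0.09, adjusted p = 0.774) in ventricles and 0.03 (SE 0.09, adjusted p = 0.859) in atria, and for Xbp1 0.04 (SE 0.11, adjusted p = 0.858) and 0.07 (SE 0.11, adjusted p = 0.708). The direction of Xbp1 in ventricles and of Eif2ak3 in atria changed with the fit. These are total gene counts, and spliced and unspliced Xbp1 were not separated.

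Herpud1, which encodes a scaffold of the ubiquitin ligase complex in the ER membrane, was the clearest other gene that was higher. It measured 131, 141 and 143 CPM in ventricle +dox and 223, 241 and 241 CPM in –dox, a log2 fold change of 0.77 (SE 0.10, adjusted p = 7.47e-07). In atria it measured 176, 184 and 185 CPM in +dox and 265, 263 and 256 CPM in –dox, a log2 fold change of 0.52 (SE 0.10, adjusted p = 2.60e-04) that was below 1.5-fold. All –dox libraries were above all +dox libraries. Of the 12 degradation genes, 2 were higher (Herpud1 and Syvn1, a ubiquitin ligase) and 3 lower (Os9, Edem3 and Selenos) in ventricles, and 1 was higher and 2 lower in atria. Derl3 had the lowest log2 fold change in ventricles, -1.16 (SE 0.78, adjusted p = 0.318), on 17 expected counts or fewer per ventricle library. Neither translocon gene, Sec61a1 or Sec61b, passed the test in either tissue.

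In ventricles 5 of the 39 genes were higher (9.64% of all genes) and 10 lower (11.3%) at adjusted p below 0.05. In atria 2 were higher (7.3% of all genes) and 8 lower (8.62%). Without Cdnf the median log2 fold change of the remaining 38 genes was -0.11 in ventricles, with a range from -1.16 (Derl3) to 0.77 (Herpud1), beside a median of 0.01 over all genes. In atria it was -0.05, from -0.59 (Sdf2l1) to 0.52 (Herpud1), beside 0.03 over all genes. The tissues share no library but came from the same animals, so the atrial values are not an independent set of mice. The 8 genes lower in atria were all lower in ventricles (100% of the atrial and 80% of the ventricular set), compared with 57.7% and 44.1% over all genes. They were Calr, Creld2, Dnajb11, Edem3, Manf, Os9, Pdia4 and Pdia6. Cdnf and Herpud1 were the 2 genes higher in both, 40% of the 5 in ventricles and 100% of those in atria, compared with 40.3% and 53.2% over all genes.

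**Figure D2:**
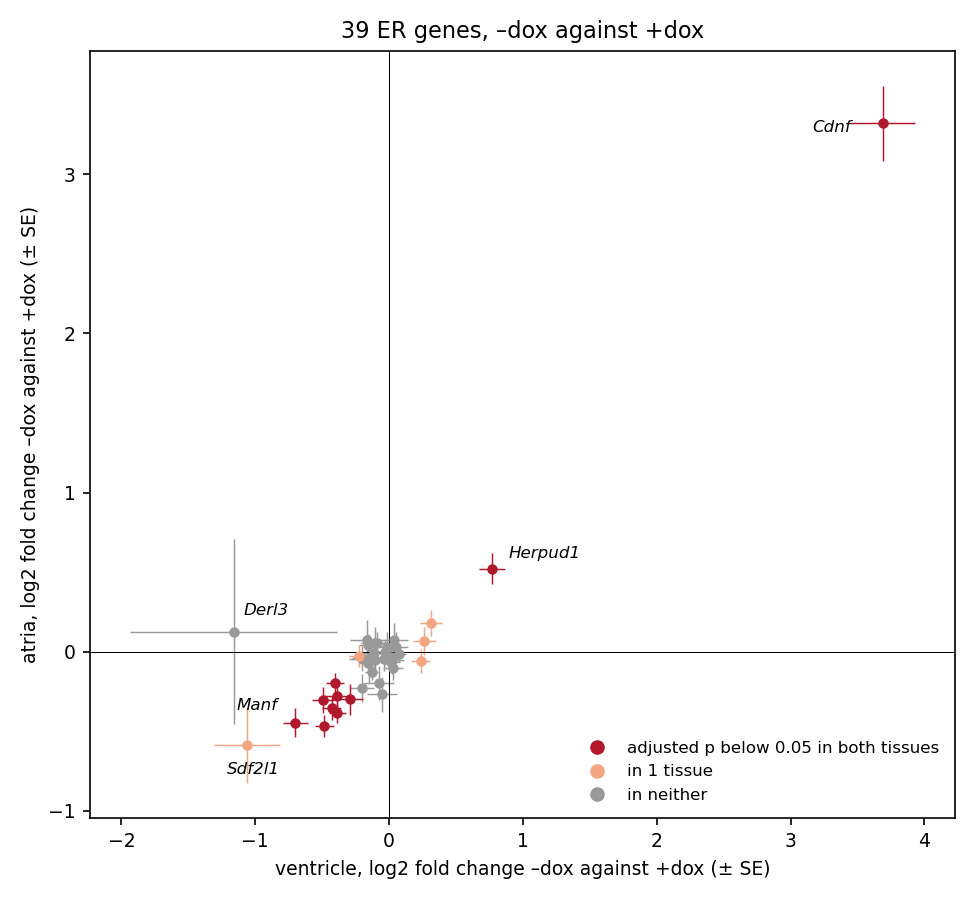
Log2 fold change of –dox against +dox for the 39 ER genes, ventricles on the horizontal and atria on the vertical axis, with bars of ± SE (n = 3 libraries per group). Colours give whether adjusted p was below 0.05 in both tissues, in 1 or in neither. Cdnf lies at 3.69 and 3.32, apart from the other 38 genes, whose log2 fold changes run from -1.16 to 0.77.

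Genes that carry an ERSE did not move together with Cdnf. Shares of all genes higher and lower by the same rule were 9.64% and 11.3% in ventricles and 7.3% and 8.62% in atria. Of the 9, 1 was higher (Syvn1) and 3 lower in ventricle –dox at adjusted p below 0.05, with a median log2 fold change of -0.20, and in atria none was higher and 3 were lower, with a median of -0.07. The 2 genes with ERSE-II differed in direction in both tissues, Herpud1 being higher and Dnajb11 lower.

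Markers of other cell types also differed between these cohorts. At adjusted p below 0.05, 9.64% of all genes were higher and 11.3% lower in ventricle –dox, and 7.3% and 8.62% in atria. In ventricle –dox all 5 endothelial markers were higher (summed level 216 to 277 TPM in –dox and 175 to 179 TPM in +dox), and 5 of 7 interferon-induced GTPases were lower (37.8 to 61.7 TPM and 37.5 to 1784 TPM). Of 6 cardiomyocyte markers 2 were higher (20227 to 23445 TPM and 19319 to 19921 TPM). The 4 red blood cell markers summed to 1834 to 4130 TPM in ventricle –dox and 392 to 1237 TPM in +dox. Their atrial sums overlapped, at 691 to 2884 TPM in –dox and 616 to 1316 TPM in +dox. None of the 5 markers of B and plasma cells, which are rich in ER chaperones, passed the test, and their summed level was 0.98 to 1.49 TPM in –dox and 0.83 to 1.06 TPM in +dox. In atria 3 of 5 endothelial, 3 of 6 fibroblast and 3 of 6 cardiomyocyte markers were higher. No marker listed for macrophages passed in either tissue. The part of these cells in the results was not tested.

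The +/–dox cohort, in which the repeat RNA was switched off in adults, was compared with the same +dox libraries. In ventricles 2 of the 39 genes passed both thresholds (6.6% of all genes), Cdnf and Herpud1, and the same 2 did in atria (3.99%). At adjusted p alone 5 genes were higher and 9 lower in ventricles, where 10.6% and 11.1% of all genes were, and 2 were higher and 7 lower in atria, where 5.4% and 7.21% were. Cdnf measured 36.5, 37.4 and 32.4 CPM in ventricles and 25.5, 26.6 and 23.7 CPM in atria, all above +dox. Its log2 fold change was 3.69 (SE 0.24, adjusted p = 1.50e-11) in ventricles and 3.30 (SE 0.24, adjusted p = 1.82e-10) in atria. Herpud1 measured 242, 272 and 210 CPM in ventricles (log2 fold change 0.81, SE 0.10, adjusted p = 4.08e-07) and 286, 325 and 247 CPM in atria (0.65, SE 0.10, adjusted p = 1.73e-05). Manf had a log2 fold change of -0.56 (SE 0.09, adjusted p = 5.90e-05) in ventricles and -0.41 (SE 0.09, adjusted p = 0.0028) in atria. Sdf2l1 did not pass in this cohort, at -0.60 (SE 0.24, adjusted p = 0.072) and -0.47 (SE 0.24, adjusted p = 0.217). Hspa5 measured 484, 482 and 503 CPM in ventricles and 379, 387 and 357 CPM in atria, all below +dox of the same tissue.

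Compared directly, –dox and +/–dox did not differ in any of the 39 genes by edgeR. In ventricles 0.0312% of all genes passed both thresholds and 9 of the 39 had an unadjusted p below 0.05, as did 8.25% of all genes. In atria 0.0104% passed both and 4 of the 39 had an unadjusted p below 0.05, as did 4.72% of all genes, and DESeq2 called none of the 39 in either tissue. The log2 difference of Cdnf was 0.01 (95% interval -0.42 to 0.44) in ventricles and 0.02 (-0.41 to 0.45) in atria. A difference within these intervals was not detectable with 3 libraries per group.

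**Figure D3:**
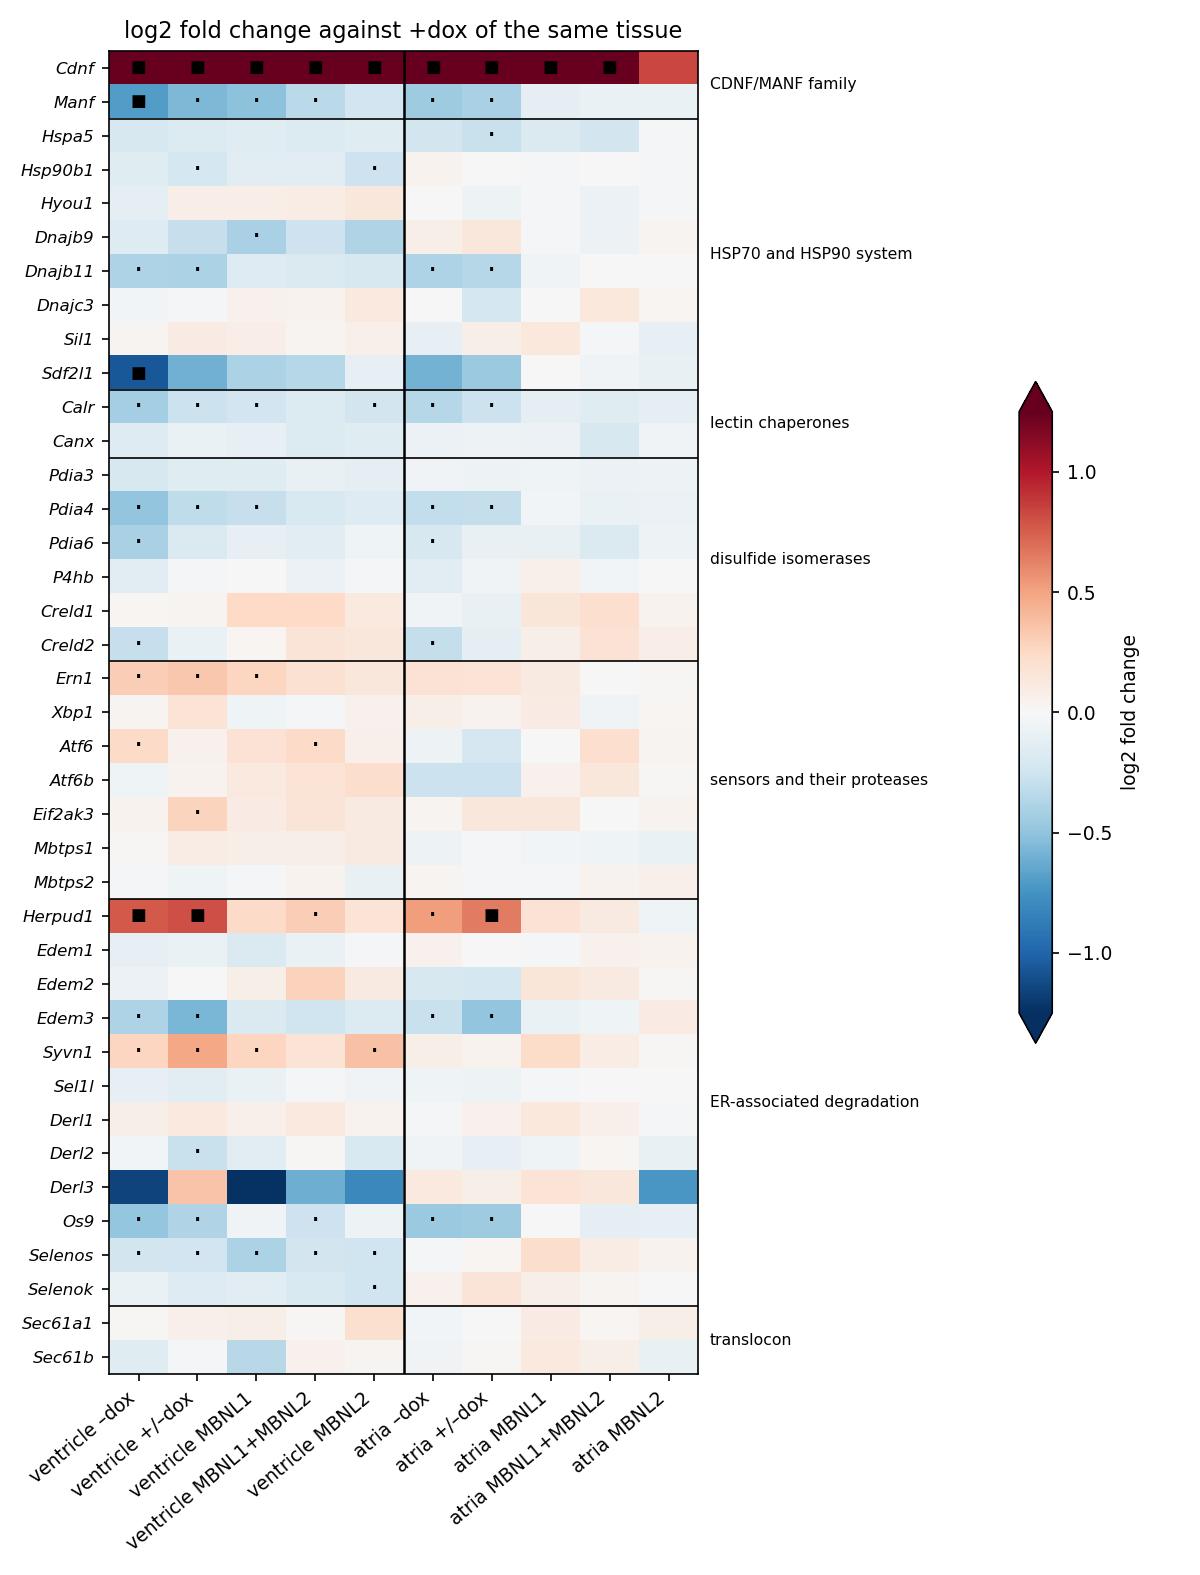
Log2 fold change against +dox (colour) of the 39 ER genes (rows, grouped by role) in the –dox, +/–dox, MBNL1, MBNL2 and MBNL1+MBNL2 cohorts of each tissue (columns). Squares mark genes past both thresholds and dots genes at adjusted p below 0.05 alone. Cdnf is marked with a square in 9 of its 10 cells.

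With MBNL overexpression in the continued presence of the repeat RNA, Cdnf was the only 1 of the 39 genes past both thresholds. This held in ventricles of the MBNL1 (2.66% of all genes), MBNL2 (1.52%) and MBNL1+MBNL2 (2.65%) cohorts and in atria of the MBNL1 (0.13%) and MBNL1+MBNL2 (0.26%) cohorts. In atria of the MBNL2 cohort none of the 39 passed by edgeR or DESeq2 (0.0052% of all genes), and 1 had an unadjusted p below 0.05 (4.32% of all genes). The 5 comparisons in each tissue share their +dox libraries. By their library names all MBNL1+MBNL2 libraries belong to the set that holds only replicate 3 of the other cohorts, and with that set as a term the log2 fold change of Cdnf for MBNL1+MBNL2 was 3.54 in ventricles and 2.38 in atria. The MBNL1+MBNL2 animals were all male, whereas each other cohort held both sexes, and the part of sex in these values was not tested.

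In ventricles Cdnf measured 37.2, 25.01 and 21.5 CPM with MBNL1, 11.5, 7.28 and 7.20 CPM with MBNL2 and 43.4, 23.4 and 24.3 CPM with MBNL1+MBNL2. All 9 libraries lay above the +dox range of 2.51 to 2.99 CPM, and the MBNL2 libraries lay below those of the other MBNL cohorts. The log2 fold change against +dox was 3.34 (SE 0.24, adjusted p = 1.08e-09) for MBNL1, 1.66 (SE 0.23, adjusted p = 1.48e-04) for MBNL2 and 3.46 (SE 0.24, adjusted p = 5.10e-10) for MBNL1+MBNL2. Without the MBNL1 library that stood apart, which gave the highest value of its cohort, the first was 3.08 (adjusted p = 5.56e-09). By the size of its rise Cdnf ranked 8 of 220, 14 of 148 and 5 of 200 genes higher past both thresholds in these cohorts.

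In atria Cdnf measured 12.8, 10.7 and 15.9 CPM with MBNL1, 4.77, 4.06 and 4.93 CPM with MBNL2 and 13.99, 9.52 and 14.4 CPM with MBNL1+MBNL2. These values lay above the 3 +dox libraries and below those of –dox and +/–dox. The log2 fold change was 2.35 (SE 0.23, adjusted p = 8.97e-07) for MBNL1 and 2.30 (SE 0.23, adjusted p = 9.80e-07) for MBNL1+MBNL2, and for MBNL2 it was 0.83 (SE 0.23, adjusted p = 0.573). Cdnf had the largest rise of the 19 genes higher past both thresholds in the MBNL1 cohort and ranked 2 of 34 in MBNL1+MBNL2.

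The other genes moved less in the MBNL cohorts. At adjusted p alone 8 of the 39 were called in ventricles with MBNL1 (8.95% of all genes), 6 with MBNL2 (7.43%) and 6 with MBNL1+MBNL2 (8.34%), Cdnf among them each time. With single libraries left out these counts were 3 to 7, 1 to 6 and 2 to 7. The lowest were found without +dox replicate 3 or MBNL1 replicate 2 for MBNL1 (3 each), without +dox replicate 3 for MBNL2 (1) and without MBNL1+MBNL2 replicate 1 for the combination (2). Without the MBNL1 library that stood apart 7 were called. Manf in ventricles had a log2 fold change of -0.51 (SE 0.09, adjusted p = 8.84e-04) with MBNL1, -0.24 (SE 0.09, adjusted p = 0.103) with MBNL2 and -0.34 (SE 0.09, adjusted p = 0.0187) with MBNL1+MBNL2. Without the library that stood apart the first was -0.46 (adjusted p = 0.00903). Herpud1 in ventricles measured 153, 164 and 174 CPM with MBNL1, 142, 164 and 160 CPM with MBNL2 and 193, 175 and 145 CPM with MBNL1+MBNL2. Its log2 fold changes were 0.24 (SE 0.10, adjusted p = 0.107), 0.17 (SE 0.10, adjusted p = 0.297) and 0.31 (SE 0.10, adjusted p = 0.0421), the first being 0.29 (adjusted p = 0.0998) without that library. In atria they were 0.18, -0.05 and 0.11, none of which passed. Sdf2l1 passed in none of the 6 MBNL comparisons.

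MBNL1 was compared with MBNL2 directly. In ventricles Cdnf was higher with MBNL1 by 1.69 on the log2 scale (SE 0.22, adjusted p = 5.05e-04), 1 of 3 genes past both thresholds (0.0156% of all genes), and without the library that stood apart the difference was 1.42 (adjusted p = 0.0111). In atria it was higher by 1.52 (SE 0.22, adjusted p = 0.00443) and was the only gene of 19231 to pass (0.0052%). The lowest MBNL1 library was above the highest MBNL2 library in both tissues. The atrial call was lost without MBNL1 replicate 3, MBNL2 replicate 1 or MBNL2 replicate 2, with log2 differences between 1.36 and 1.55.

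Cdnf lay below its +/–dox level in all 3 MBNL cohorts of the atria and in ventricles with MBNL2. In ventricles the log2 difference was -0.34 (SE 0.21, adjusted p = 0.412) with MBNL1 and -0.22 (SE 0.21, adjusted p = 0.693) with MBNL1+MBNL2, with 95% intervals of -0.77 to 0.09 and -0.65 to 0.21. Without the library that stood apart the MBNL1 difference was -0.61 (adjusted p = 0.216). With MBNL2 it was -2.03 (SE 0.22, adjusted p = 1.17e-06). In atria it was -0.94 (SE 0.21, adjusted p = 0.00839) with MBNL1, -2.46 (SE 0.23, adjusted p = 3.03e-08) with MBNL2 and -0.997 (SE 0.21, adjusted p = 0.00416) with MBNL1+MBNL2. Without atrial MBNL1 replicate 2 the MBNL1 difference was -0.81 (adjusted p = 0.077).

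Of the 39 genes, none passed both thresholds against ventricle +/–dox with MBNL1 (0.868% of all genes) or MBNL1+MBNL2 (0.53%) by edgeR or DESeq2, although 9 and 11 had an unadjusted p below 0.05 (16.9% and 14.7% of all genes). With MBNL2 2 passed (1.57%), Cdnf and Herpud1, the latter lower by a log2 difference of -0.63 (SE 0.10, adjusted p = 1.03e-04). In atria Cdnf alone passed with MBNL1 (1.21%) and MBNL1+MBNL2 (1.71%), and 3 genes passed with MBNL2 (3.24%). They were Cdnf, Herpud1 (log2 difference -0.70, SE 0.10, adjusted p = 8.80e-06) and Edem3, a mannosidase-like protein of the degradation pathway, which was higher (0.60, SE 0.10, adjusted p = 1.27e-04). Edem3 measured 86.1, 75.8 and 69.8 CPM in atria with MBNL2 and 53.6, 49.6 and 50.03 CPM in +/–dox.

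Whether responses differed between tissues was tested as the difference of the log2 fold changes, atria minus ventricles. None of the 39 genes passed for –dox (0.764% of all genes), +/–dox (0.489%), MBNL2 (0.0364%) or MBNL1+MBNL2 (0.0728%), with 3, 6, 7 and 4 at an unadjusted p below 0.05 (11%, 12.7%, 11% and 6.48% of all genes). DESeq2 called none for the first 3 of these and 1 for MBNL1+MBNL2, which was Cdnf. By edgeR the difference of Cdnf was -0.37 (SE 0.32, adjusted p = 0.75) for –dox, -0.99 (SE 0.32, adjusted p = 0.42) for MBNL1 and -1.17 (SE 0.32, adjusted p = 0.218) for MBNL1+MBNL2. None of these passed by edgeR, so the call for MBNL1+MBNL2 depended on the tool. Without the library that stood apart the MBNL1 value was -0.73 (adjusted p = 0.66). This fit takes no account of both tissues coming from the same animals. A fit chosen after seeing the data, with cohort and replicate number together as a block of 18 levels, gave -0.37 (adjusted p = 0.594), -0.98 (adjusted p = 0.193) and -1.14 (adjusted p = 0.1) for the same 3, and called none of the 39 genes for –dox (1.55% of all genes), +/–dox (1.2%), MBNL2 (0.421%) or MBNL1+MBNL2 (0.307%). That equal numbers mark an animal is not stated. For MBNL1 1 gene passed (0.0312%), Selenos, which encodes a selenoprotein of the degradation complex, and it passed in the block fit as well (adjusted p = 0.0295).

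Levels differed between the tissues themselves. In the –dox cohort 5 of the 39 genes differed past both thresholds, compared with 24.9% of all genes, and all 5 were higher in atria. They were Derl3 (log2 difference 3.52, SE 0.73), Sdf2l1 (0.94, SE 0.25), Sec61a1 (0.68, SE 0.07), P4hb (0.61, SE 0.05) and Os9 (0.60, SE 0.07), with adjusted p of 0.00231 or below. At adjusted p alone 21 genes were higher in atria (22.3% of all genes) and 6 lower (20.3%). Among the 6 were Hspa5 (-0.31) and Canx (-0.21). Cdnf itself did not pass, at -0.47 (SE 0.21, adjusted p = 0.0733), and had an adjusted p of 0.0371 with the block of cohort and number, in which the same 5 genes passed both thresholds. These genes other than Cdnf and Hspa5 were chosen for mention after their values were seen.

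Genes of the same pathway outside the 39 were counted by list. By adjusted p below 0.05, 9.64% of all genes were higher and 11.3% lower in ventricle –dox, and 7.3% and 8.62% in atria. Of 37 other folding enzymes, 3 were higher and 9 lower in ventricle –dox at adjusted p below 0.05, and 4 and 9 in atria. Of 24 other translocon and glycosylation genes, none was higher and 9 lower in ventricles, and none and 5 in atria. Of 17 other degradation genes 2 were higher and 1 lower in ventricles, and 1 and 3 in atria. Of 9 PERK and ATF4 targets, none was higher and 2 lower in ventricles, while 2 were higher and 1 lower in atria. Of the 5 other membrane-bound stress transducers none was higher and 1 lower in each tissue.

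Across the 18 libraries of each tissue, the genes of the 39 whose log2 CPM followed Cdnf most closely were Ern1 and Herpud1, as a description without a test. In ventricles Pearson's r was 0.74 for Ern1 and 0.72 for Herpud1 (Spearman's rho 0.73 and 0.75), and in atria it was 0.64 and 0.81 (0.67 and 0.80). Manf was opposed to Cdnf, at -0.84 in ventricles and -0.79 in atria (rho -0.86 and -0.83), and so was Calr in atria, at -0.80 (rho -0.82). The points share their cohort means and their normalisation, so these values restate the cohort differences in large part.

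Of 2 genes beside Cdnf, Hspa14 did not share its rise, and Fam107b was higher in –dox by far less than Cdnf. Cdnf spans chr2:3513030-3526376 on the plus strand with no overlapping annotated gene. Hspa14, which encodes an Hsp70-like protein of the cytosol, starts on the minus strand 215 bases away, and the promoter windows of the 2 genes share 250 bases. Hspa14 measured 22.8, 23.6 and 21.6 CPM in ventricle +dox and 17.6, 19.0 and 15.7 CPM in –dox. This is a lower level in –dox, with a log2 fold change of -0.38 (SE 0.10, adjusted p = 0.00521), and in atria it was -0.19 (SE 0.10, adjusted p = 0.199). Fam107b, on the other side at 44111 bases, had a log2 fold change of 0.30 (SE 0.13, adjusted p = 0.0921) in ventricles and 0.48 (SE 0.13, adjusted p = 0.00774) in atria. Neither Hspa14 nor Fam107b reached 1.5-fold in any comparison with +dox. Counts of Fam107b may be shared as well, since it overlaps Gm13181 on the same strand. Hspa14 overlaps Gm45902 on the same strand (chr2:3504527-3512790), so counts of Hspa14 may be shared with that gene, which had a log2 fold change of -0.75 (SE 0.25, adjusted p = 0.06) in ventricles with MBNL1.

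**Figure D4:**
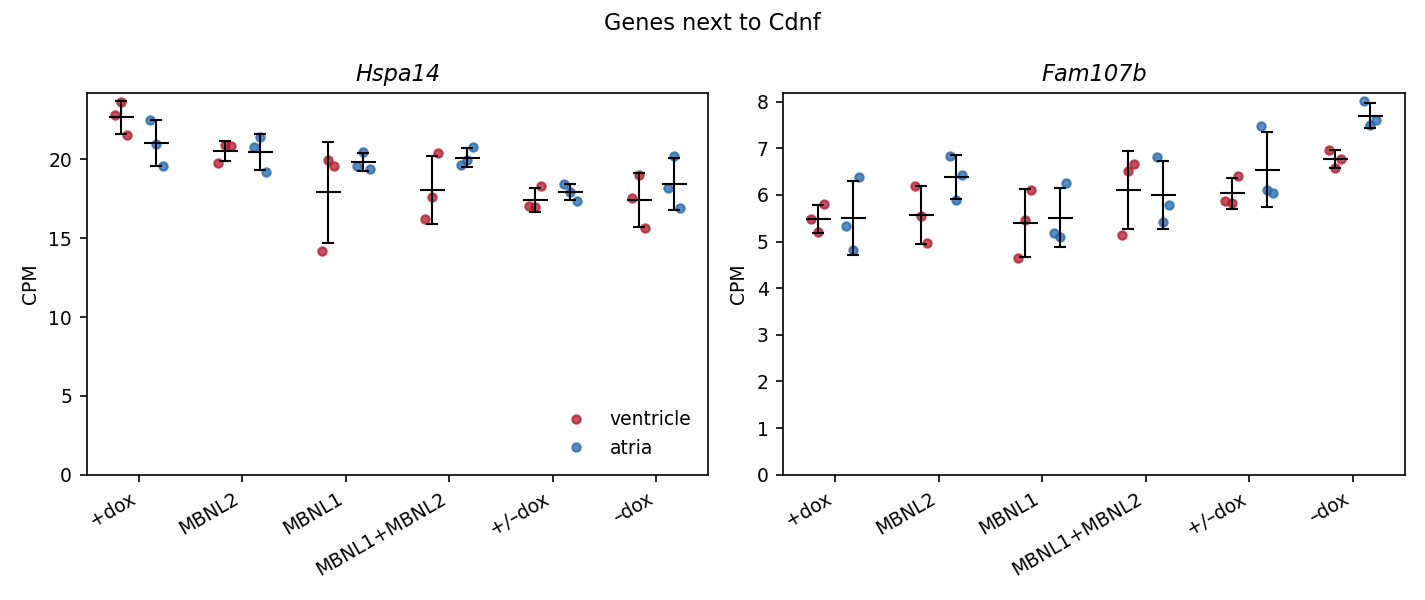
CPM (vertical axis) of Hspa14 and Fam107b, annotated genes on either side of Cdnf, in each library of the 6 cohorts in ventricles and atria. Points are libraries and bars give the mean ± SD (n = 3). Hspa14 in ventricles lies at 21.6 to 23.6 CPM in +dox and 15.7 to 19.0 CPM in –dox.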

How the data were processed

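RNA-Seq libraries of ventricles and atria were deposited as RSEM tables of estimated counts and of TPM per gene. The authors made both with STAR 2.7.10b and RSEM 1.3.1 (versions per the submitters' processing notes) on mm10 with GENCODE M25 annotation. Whether strand was used in counting is not given in the sources used here, and 13 of the 39 genes overlap a gene on the other strand. Gene spans, gaps and overlaps were taken from an earlier GENCODE release than the M25 used for counting. The deposited expected counts were rounded, and low genes were removed with filterByExpr. They were tested with edgeR 4.0.16 in R 4.3.3 (TMM, robust quasi-likelihood fit of 12 group means over 36 libraries) with Benjamini-Hochberg adjustment over 19231 genes per comparison. A call needed adjusted p below 0.05 and a 1.5-fold change. CPM are normalised by TMM. The deposited TPM, which are not, served for levels between genes, for summed levels by cohort and for limma-trend. P-values rest on the spread of libraries within groups, estimated over all 12 groups and drawn toward that of other genes. They do not rest on the 3 samples of the compared groups alone. The labels call these samples biological replicates, and both tissues of an animal entered as separate samples.

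Genes named by rule were Cdnf, Manf, Hspa5, Hsp90b1, Calr, Xbp1, Atf6, Eif2ak3, Ern1, every gene called against +dox and the neighbours of Cdnf. For Hspa5, Hsp90b1, Calr, Xbp1, Atf6, Eif2ak3, Ern1 and the neighbours, fold changes against +dox are given for –dox alone. Other genes named were chosen after their values were seen. The members and lists were chosen with earlier results of these data known. Alternatives used DESeq2 1.42.0, limma 3.58.1, other filters and scalings, a replicate block, a term for the set of library names (replicates 1 and 2 against replicate 3 and all MBNL1+MBNL2 libraries) and each library left out. A block of cohort and replicate number was added for the differences between tissues after the data were seen. In simulated counts for ventricle –dox against +dox, 18850 genes were tested, of which 18652 were unchanged. Adjusted p below 0.05 recovered 48% of 1.5-fold, 73.5% of 2-fold, 83.7% of 4-fold and 90% of 8-fold changes, with 8 false calls. Changed genes were a smaller share there than the 20.9% at adjusted p below 0.05 in the data, so recovery may differ.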

Additional observations from a re-analysis of the deposited data

Results flagged for a closer look

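Selenos, which encodes a selenoprotein of the ER-associated degradation complex, responded differently to MBNL1 in the 2 tissues by a test of the difference itself. It measured 26.2, 28.1 and 26.1 CPM in ventricle +dox and 19.2, 21.6 and 20.3 CPM in ventricle MBNL1, all lower. In atria it measured 32.3, 28.9 and 30.1 CPM in +dox and 37.8, 33.5 and 35.1 CPM in MBNL1, all higher. The log2 fold change was -0.40 (SE 0.07, adjusted p = 5.27e-04) in ventricles and 0.22 (SE 0.07, adjusted p = 0.208) in atria. The difference, atria minus ventricles, was 0.62 (SE 0.10, adjusted p = 0.00829 by edgeR). With a block of cohort and replicate number, chosen after seeing the data because both tissues came from the same animals, it was 0.62 (adjusted p = 0.0295). Its size is close to the 1.5-fold limit. Without ventricle MBNL1 replicate 1, the library with few detected genes, it was 0.58 (adjusted p = 0.0156). It also fell below 1.5-fold without ventricle +dox replicate 2, atrial +dox replicate 2 or atrial MBNL1 replicate 1. Over the 18 alternative settings the highest adjusted p of this difference was 0.0578, above the threshold.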

How the results depend on the processing

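Cdnf kept its call in all 16 settings of each of the 9 comparisons with +dox in which it was called, with log2 fold changes of 2.82 to 3.79 in ventricles and 2.64 to 3.39 in atria for –dox, the lowest on log2(TPM + 1). Herpud1, Manf and Sdf2l1 also kept theirs in all 16 for ventricle –dox. With adjusted p alone and no limit on fold, the genes called of the 39 were 15 (–dox), 14 (+/–dox), 8 (MBNL1), 6 (MBNL2) and 6 (MBNL1+MBNL2) in ventricles and 10 (–dox) and 9 (+/–dox) in atria against +dox. Against +/–dox they were 4, 5 and 2 for MBNL1, MBNL2 and MBNL1+MBNL2 in ventricles (2.67%, 5.39% and 1.77% of all genes) and 6, 8 and 11 in atria (4.6%, 11% and 6.86%), and 27 between the tissues (42.6%). Library weights in limma voom gave 4 for ventricle +/–dox. A term for library set gave 2 for ventricle MBNL1+MBNL2. For atrial –dox it gave 2, as did a fit of only that tissue, a fit of the 6 libraries compared and a replicate block. On limma-trend of log2(TPM + 1) 1 was called in atrial +/–dox, and DESeq2 called 1, Cdnf, in the tissue difference for MBNL1+MBNL2. The cause was not tested.

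Leaving out each library in turn gave 2 to 4 calls for ventricle +/–dox, 1 to 2 for ventricle MBNL1 and 1 to 2 for atrial +/–dox against +dox. Against +/–dox it gave 0 to 2, 1 to 2 and 0 to 1 for MBNL1, MBNL2 and MBNL1+MBNL2 in ventricles, and 0 to 1 for MBNL1 and 1 to 2 for MBNL1+MBNL2 in atria. For MBNL1 against MBNL2 it gave 1 to 2 in ventricles and 0 to 1 in atria, and for the tissue difference with MBNL1 0 to 1. Herpud1 lost its call in atrial +/–dox without +/–dox replicate 2 (log2 fold change 0.53) and under limma-trend (0.58).

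The near-zero changes of Xbp1 in ventricles and Eif2ak3 in atria reversed under limma-trend, to -0.031 and -0.0022. With libraries left out they ranged from -0.034 to 0.17 and from -0.041 to 0.099. Replicate numbers did not pair the libraries of a tissue. Deviations of same-numbered libraries from their group means correlated at -0.15 to 0.29 (90 pairs, median 0.03), and between atria and ventricle of a cohort at 0.04 to 0.26 (18 pairs, 11 over 0.1), where 17 of 18 libraries correlated best with their own number. The labels do not say whether equal numbers of a cohort mark an animal. The replicate block moved no other count of calls by over 1.5 times, and the block of cohort and number, chosen after seeing the data, left the 6 counts of tissue differences as they were. No other scaling moved the median of all genes by over 0.1 on the log2 scale. With 3 libraries per group, 48% of 1.5-fold changes were recovered in the simulated counts, and smaller changes were not simulated.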

Other observations

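Several genes of the secretory pathway outside the 39, chosen after their values were seen, changed by more than most of the chaperones. Fkbp11, which encodes an ER prolyl isomerase, was lower in –dox than in +dox by a log2 fold change of -1.77 (SE 0.15, adjusted p = 7.04e-10) in ventricles and -1.01 (SE 0.14, adjusted p = 6.46e-06) in atria. In +/–dox its log2 fold change was -1.35 (SE 0.15, adjusted p = 1.27e-07) in ventricles and -0.76 (SE 0.14, adjusted p = 4.02e-04) in atria. Sec61a2, which encodes the alternative pore subunit of the translocon, was lower in –dox by -0.98 (SE 0.11, adjusted p = 8.68e-08) in ventricles and -1.02 (SE 0.11, adjusted p = 4.22e-08) in atria, whereas Sec61a1 passed in neither tissue.

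The targets of PERK and ATF4 did not move as a group. Ddit3, which encodes CHOP, was lower in ventricle –dox with a log2 fold change of -0.69 (SE 0.12, adjusted p = 1.17e-04), and in atria the value was -0.43 (SE 0.12, adjusted p = 0.0127). Sesn2 was lower in ventricles (-0.83, SE 0.19, adjusted p = 0.00236) and had a value of -0.03 (SE 0.19, adjusted p = 0.938) in atria. Asns, which encodes asparagine synthetase, was higher in atria of –dox (0.87, SE 0.30, adjusted p = 0.0427), with -0.44 (SE 0.30, adjusted p = 0.388) in atria of +/–dox. Trib3 was higher in atria of –dox (0.73, SE 0.16, adjusted p = 0.00218), and Chac1 in atria of +/–dox (1.24, SE 0.32, adjusted p = 0.0101).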
